A study of Homo sapiens with 6 samples.

Results

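The genes described here are 35 genes of S phase and DNA replication, from the cyclins and E2F factors that open S phase to the helicase, clamp, polymerase and nucleotide enzymes of the replication fork. They were chosen by symbol from the annotation of the array, using probe sets with exactly 1 gene symbol, and each gene was read at its brightest probe set, by the mean of the 6 arrays. All 35 were measured, among 19775 genes in all, with 72 probe sets between them. Expression was profiled on Affymetrix Human Genome U133 Plus 2.0 arrays in HUVECs, primary endothelial cells of the umbilical vein bought from a supplier and grown in serum-containing endothelial medium with growth factors. The tested group was transfected with an siRNA against the long noncoding RNA ANRIL (3 arrays, called ANRIL siRNA) and the comparison group with a scrambled siRNA (3 arrays, called control siRNA). The labels describe 3 sets of cells and 1 non-liposomal transfection reagent for both groups, and untransfected cells were not analysed here. They do not give the number of donors or the time between transfection and harvest, so p-values measure the spread between these samples, which may be technical.

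Replication begins when the licensing factors CDC6 and CDT1 load the MCM2 to MCM7 ring at origins, and when CDC45, the GINS complex and MCM10 turn that ring into a moving helicase. The genes for these proteins are classical targets of the E2F factors, which the retinoblastoma protein holds silent until cyclin-dependent kinases inactivate it. ANRIL lies in the locus of CDKN2A and CDKN2B, whose products inhibit those kinases, which is the reason to ask how S phase genes stood after its targeting. In a growing culture the summed level of these transcripts tracks the share of cells in S phase, and in bulk samples fewer such cells and less RNA per cell cannot be told apart.

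The ANRIL siRNA is shown because it is the treatment that defines the groups, and the scrambled sequence was not used here. It was a duplex of a 25-base sense strand and a 27-base antisense strand, with the 25 antisense bases that pair with the sense strand in capitals, both written 5′ to 3′.
sense strand: ggauaugugccaugaguaagaauaa
antisense strand: UUAUUCUUACUCAUGGCACAUAUCCau

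Over all probe sets, pairs of arrays had Pearson's r of 0.9964 to 0.9974 between the groups and 0.9971 to 0.9977 inside a group, as a description. The targeted transcript, listed as CDKN2B-AS1, had 1 probe set at percentile 9.39 of signal, with log2 values of 3.69, 4.05 and 4.05 with ANRIL siRNA and 4.08, 4.05 and 3.95 with control siRNA, and a limma difference of −0.10 ± 0.10 (SE, adjusted p = 0.666), so the knockdown could not be checked at such a low signal. All 12 endothelial markers lay above the median signal of all genes, against 2 of 10 fibroblast, 4 of 10 smooth muscle, 1 of 9 leukocyte and 3 of 10 epithelial markers. The summed linear signal of the endothelial markers was 48631 to 50999 with ANRIL siRNA and 53822 to 57229 with control siRNA, and that of the leukocyte markers 622 to 682 and 558 to 597. For fibroblast markers the sums were 1358 to 1459 with ANRIL siRNA and 1301 to 1355 with control siRNA. They were 15573 to 15999 and 16168 to 16408 for smooth muscle markers and 4232 to 4350 and 4642 to 4982 for epithelial markers. None of the 5 sums overlapped between the groups, but a sum weighs its brightest genes most. The smooth muscle sum rested most on RGS5, at mean log2 13.71 with ANRIL siRNA and 13.75 with control siRNA. Of all genes, 74.1% above the median signal and 28.6% at or below it lay below 0, and 23.4% had groups without overlap. Below 0 were 12 of 12 endothelial markers (TIE1 at −0.42 ± 0.06, CDH5 at −0.28 ± 0.07), 6 of 10 fibroblast, 4 of 10 smooth muscle, 1 of 9 leukocyte and 5 of 10 epithelial markers. The difference between 3′ and 5′ ACTB probe sets, a sign of RNA quality, was 0.72 ± 0.13 with ANRIL siRNA and 0.54 ± 0.05 with control siRNA (log2, SD, n = 3 each), and for GAPDH 0.0576 ± 0.0297 and −0.0013 ± 0.0121. The part of these values in the results below was not tested.

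S phase and replication genes stood close together in the 2 groups. The log2 difference, ANRIL siRNA minus control siRNA, lay between −0.23 for MCM7 and 0.23 for E2F2, or at most 1.18-fold with all 6 arrays. With 1 array left out the limit was 1.30-fold, for E2F2 at 0.38 without ANRIL siRNA replicate 2, and CCNE2 was at −0.34 without ANRIL siRNA replicate 1. Of the 35 genes, 23 lay below 0 and 12 above, with a median of −0.04, beside 51.3% below 0 and a median of −0.0046 over all genes. None passed limma's test (Benjamini-Hochberg adjusted p over all genes, threshold 0.05, two-sided), as did 0% of all 19775 genes, where the smallest adjusted p was 0.125. The smallest adjusted p among the S phase genes was 0.167, for TYMS.

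At an unadjusted p under 0.05, 1 of the 35 genes was higher (MCM10) and 3 were lower (MCM7, TYMS and SLBP), together 11.4% against 18% of all genes, of which 9.83% were higher and 8.16% lower. Groups were fully apart for 5 of 35 genes, or 14.3%, against 23.4% of all genes. Of these MCM2 and PRIM1 were higher (10.6% of all genes) and MCM7, TYMS and SLBP lower (12.8%). Both shares were below the background of the array, and this gap was not tested. The SE of a gene's difference ran from 0.06 to 0.13 with a median of 0.07. For all 35 genes the 95% interval of the difference lay within 1.5-fold either way, and for 24 within 1.2-fold. The difference was smaller than the range of the 3 arrays of at least 1 group for 31 genes, and smaller than the ranges of both groups for 21.

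**Figure D1:**
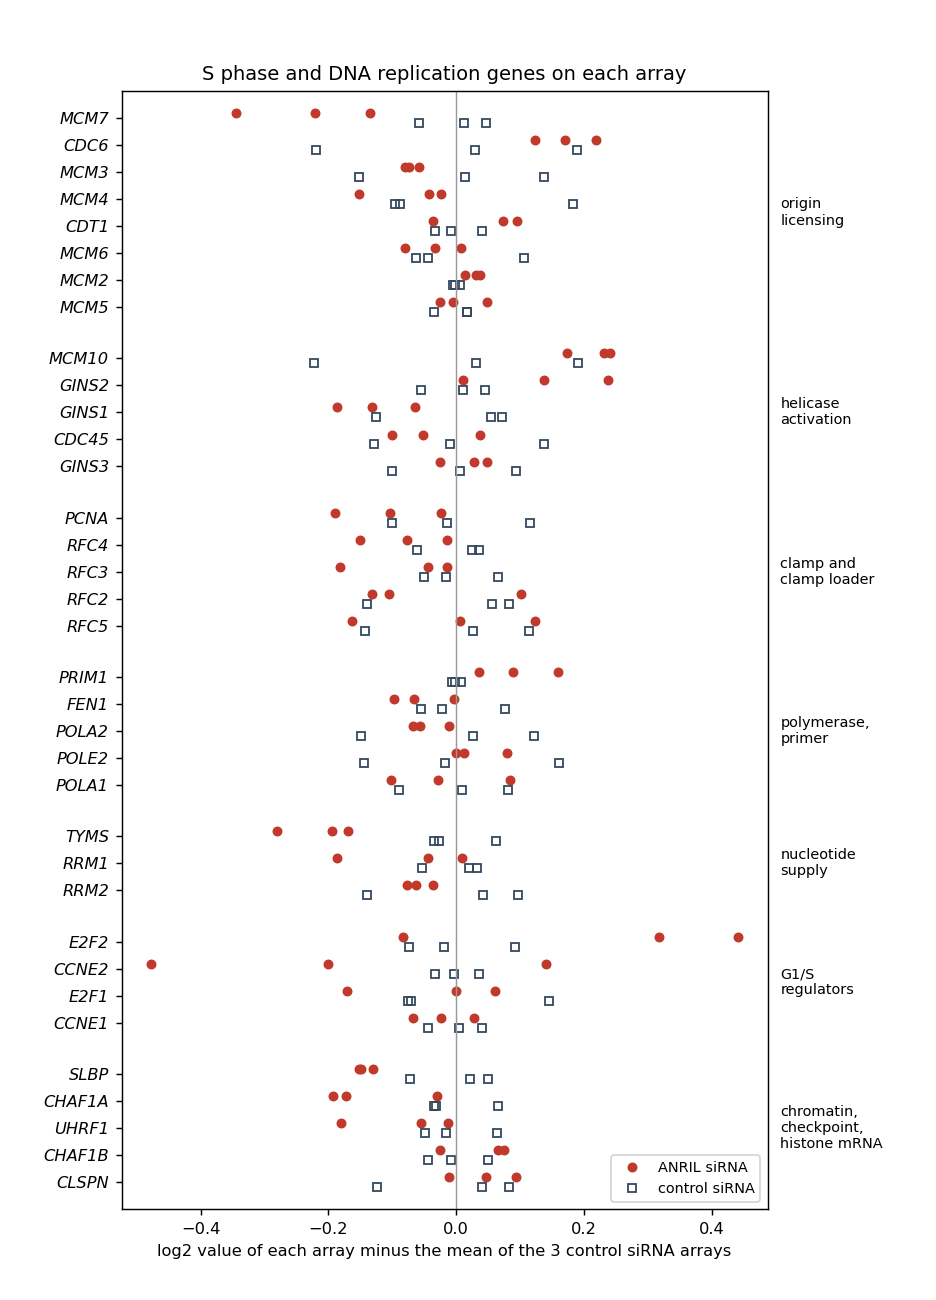
Each of the 35 genes is a row, with the log2 value of each array minus the mean of the 3 control siRNA arrays on the horizontal axis, ANRIL siRNA as filled red circles and control siRNA as open squares below them. The red circles lie wholly to the left of the squares for MCM7, TYMS and SLBP and wholly to the right for MCM2 and PRIM1, and overlap with the squares in the other rows.

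Many of the genes share letters of an E2F site in their promoters. E2F factors are known to bind 8-base sites, and the 4 spellings TTTCCCGC, TTTCGCGC, TTTGCCGC and TTTGGCGC were searched on both strands in the RefSeq windows (GRCh38.p14) from 250 bases before to 50 after each transcription start. By symbol 32 of the 35 genes were matched, all but MCM4, MCM5 and CCNE2. Of these 32 genes, 19 (59.4%) held a match in at least 1 window, against 5.36% of the 15384 tested genes with a window, and 20 of 40 member windows did against 3.31% of all 35116 windows. The separate letters CCAAT, a box common to many promoters, were in 60.0% of member windows and 34.61% of all. A match is a description of letters, not of binding.

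Stretches of 6 of these windows are printed because they carry such matches in genes that the results turn on: TYMS and MCM7, of the lowest values, E2F2, of the highest, the regulator E2F1, the clamp PCNA, and MCM6, with 4 matches in overlapping pairs. Each ends at the base before the transcription start, runs 5′ to 3′ on the strand of the gene, and has the matches of either strand in capitals.
TYMS, chr18:657553-657652, + strand: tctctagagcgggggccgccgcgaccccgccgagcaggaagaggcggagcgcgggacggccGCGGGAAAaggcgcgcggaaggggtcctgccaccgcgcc
MCM7, chr7:100101398-100101497, - strand: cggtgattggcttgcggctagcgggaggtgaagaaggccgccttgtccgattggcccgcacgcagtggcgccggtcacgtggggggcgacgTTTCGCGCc
E2F2, chr1:23531234-23531333, - strand: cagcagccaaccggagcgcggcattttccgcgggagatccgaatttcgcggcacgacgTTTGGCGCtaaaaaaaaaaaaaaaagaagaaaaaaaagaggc
E2F1, chr20:33686386-33686485, - strand: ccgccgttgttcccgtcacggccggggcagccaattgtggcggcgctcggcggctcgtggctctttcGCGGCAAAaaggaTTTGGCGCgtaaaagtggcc
PCNA, chr20:5126623-5126722, - strand: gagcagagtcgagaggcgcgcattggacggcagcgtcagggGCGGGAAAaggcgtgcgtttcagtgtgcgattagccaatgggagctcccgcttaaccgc
MCM6, chr2:135876444-135876603, - strand: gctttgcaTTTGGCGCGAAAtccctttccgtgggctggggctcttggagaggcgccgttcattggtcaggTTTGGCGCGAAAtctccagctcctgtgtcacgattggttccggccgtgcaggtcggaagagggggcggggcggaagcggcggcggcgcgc

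In TYMS the match began 39 bases before the start and in E2F2 42. MCM7 held 2 matches, 187 and 9 bases before the start, of which the printed stretch holds the nearer. TYMS and MCM7 lay at the low end of the differences and E2F2 at the high end. The 2 matches of E2F1 began 33 and 20 bases before its start, and that of PCNA 59. The 19 genes with a match had a median difference of −0.035, with 11 below 0, and the 13 without had −0.045, with 10 below 0. The median of all 824 tested genes with a match was −0.030, with 60.1% below 0.

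Origin licensing genes were spread evenly about 0, with 4 of 8 below it and a median of −0.01. MCM7, a subunit of the MCM2 to MCM7 helicase ring, had log2 values of 7.99, 8.11 and 8.20 with ANRIL siRNA, against 8.27, 8.34 and 8.38 with control siRNA. All ANRIL siRNA arrays were below all control siRNA arrays, and the difference was −0.23 ± 0.07 (SE with 3 arrays a group; limma adjusted p = 0.17, 95% interval −0.39 to −0.08), or 1.18-fold lower. The dimmer MCM7 probe set differed by −0.01 ± 0.06, with 7.87, 7.89 and 7.88 with ANRIL siRNA against 7.89, 7.91 and 7.87 with control siRNA. The groups overlapped at that probe set, and with the 2 probe sets averaged MCM7 stood at −0.12.

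CDC6, which loads the ring together with CDT1, read 6.14, 6.09 and 6.04 with ANRIL siRNA and 5.70, 5.95 and 6.11 with control siRNA. The groups overlapped because of control siRNA replicate 3, and the difference was 0.17 ± 0.09 (adjusted p = 0.357), while the dimmer CDC6 probe set stood at −0.07 ± 0.12. The difference was 0.06 without control siRNA replicate 1 and 0.27 without control siRNA replicate 3. CDT1 itself differed by 0.04 ± 0.06. MCM2, with 8.22, 8.23 and 8.20 with ANRIL siRNA and 8.18, 8.19 and 8.20 with control siRNA, had groups that did not overlap, by less than 0.01 between the nearest arrays, at a difference of 0.03 ± 0.06 (adjusted p = 0.811). Of the other ring subunits, MCM3 stood at −0.07 ± 0.08, MCM4 at −0.07 ± 0.08, MCM5 at 0.01 ± 0.06 and MCM6 at −0.04 ± 0.07. MCM4 had 5 probe sets, 3 above 0 and 2 below, the highest at 0.24 ± 0.08 with no overlap between groups (limma adjusted p = 0.248).

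Genes of helicase activation were on both sides of 0, with 3 of 5 above it. MCM10, a factor that helps the loaded helicase to start, had 5.69, 5.62 and 5.68 with ANRIL siRNA, against 5.64, 5.23 and 5.48 with control siRNA. Control siRNA replicate 1 lay within the ANRIL siRNA values, and the difference was 0.22 ± 0.09 (95% interval 0.01 to 0.42, adjusted p = 0.266). Without control siRNA replicate 2, the lowest array, it was 0.10. A dimmer MCM10 probe set differed by 0.25 ± 0.09 and the dimmest by −0.03 ± 0.07. GINS2, a subunit of the GINS complex that travels with the helicase, had 8.61, 8.49 and 8.71 with ANRIL siRNA and 8.52, 8.49 and 8.42 with control siRNA, a difference of 0.13 ± 0.07 (adjusted p = 0.361), or 0.07 without ANRIL siRNA replicate 3. All 3 GINS2 probe sets were above 0, but the middle one only by 0.02 ± 0.07 with overlapping groups. The dimmest stood at 0.27 ± 0.08 with no overlap between groups. The other subunits GINS1 and GINS3 stood at −0.13 ± 0.07 and 0.02 ± 0.07. CDC45, the third component of the active helicase, differed by −0.04 ± 0.08.

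Clamp and clamp loader genes were all below 0, at 5 of 5, with all 6 arrays at their brightest probe sets, but RFC5 turned sign with array weights (0.024), cyclic loess (0.060), a second quantile normalization (0.067) and arrays left out (up to 0.065). PCNA, the sliding clamp that holds polymerases on DNA, had 10.45, 10.53 and 10.37 with ANRIL siRNA, against 10.54, 10.67 and 10.45 with control siRNA. The groups overlapped, and the difference was −0.11 ± 0.07 (95% interval −0.27 to 0.06, adjusted p = 0.465). It was −0.06 without ANRIL siRNA replicate 3 and −0.05 without control siRNA replicate 2. RFC4, a small subunit of the loader that opens the clamp, had 8.02, 7.96 and 7.88 with ANRIL siRNA and 8.07, 8.06 and 7.97 with control siRNA, a difference of −0.08 ± 0.06 (adjusted p = 0.516), or −0.05 without ANRIL siRNA replicate 3. The other loader subunits RFC2, RFC3 and RFC5 stood at −0.04 ± 0.08, −0.08 ± 0.07 and −0.01 ± 0.09. All of their probe sets, 2 for RFC2 and 3 each for RFC3 and RFC5, were below 0 as well.

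Genes of polymerases and primers had differences from −0.06 to 0.09. PRIM1, the catalytic subunit of primase, had 6.44, 6.38 and 6.51 with ANRIL siRNA, against 6.36, 6.34 and 6.35 with control siRNA. The groups did not overlap and the control siRNA values were closely grouped, and the difference was 0.09 ± 0.06 (adjusted p = 0.421), or 0.06 without ANRIL siRNA replicate 3. FEN1, the nuclease that trims flaps of Okazaki fragments, had 8.06, 8.03 and 8.12 with ANRIL siRNA and 8.07, 8.20 and 8.11 with control siRNA, a difference of −0.06 ± 0.06 (adjusted p = 0.655). It was −0.03 without ANRIL siRNA replicate 2 and −0.02 without control siRNA replicate 2. The polymerase alpha subunits POLA1 and POLA2 stood at −0.02 ± 0.07 and −0.05 ± 0.07, and POLE2, a subunit of polymerase epsilon, at 0.03 ± 0.08. A dimmer POLA2 probe set lay at 0.18 ± 0.08, with no overlap between groups, against the sign of the brightest.

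The 3 members of nucleotide supply were all below 0, but only TYMS kept that sign under every alternative run. Among the S phase E2F targets listed further below, the nucleotide enzymes TK1 and DUT stood at 0.24 ± 0.07 and −0.17 ± 0.06. The groups did not overlap for either. RRM1 turned to 0.0043 with cyclic loess and 0.0086 with a second quantile normalization, and RRM2 to 0.0064 with that normalization, 0.031 with probe sets averaged and 0.12 without _s_at and _x_at probe sets. TYMS, thymidylate synthase, which makes the thymidine nucleotide that only DNA uses, had 10.07, 10.04 and 9.96 with ANRIL siRNA, against 10.20, 10.30 and 10.21 with control siRNA. Each ANRIL siRNA array was below each control siRNA array, and the difference was −0.21 ± 0.06 (95% interval −0.35 to −0.08, adjusted p = 0.167), or 1.16-fold lower. With an intensity-trended robust prior, which lets the expected variance depend on signal, the adjusted p of TYMS was 0.0396, and it was the only member called, 1 of 35 against 2.74% of all genes (2.15% lower). Over all alternatives run, the limma adjusted p of TYMS was 0.0396 to 0.412, and its difference was −0.13 under either renormalization. The TYMS probe set of rank 2 had the same pattern, with 8.55, 8.49 and 8.57 with ANRIL siRNA against 8.69, 8.91 and 8.67 with control siRNA and a difference of −0.22 ± 0.08, while the dimmest stood at −0.02 ± 0.07. RRM1, the large subunit of ribonucleotide reductase, had 9.81, 9.87 and 9.67 with ANRIL siRNA and 9.80, 9.88 and 9.89 with control siRNA, a difference of −0.07 ± 0.07 (adjusted p = 0.58). With ANRIL siRNA replicate 2 left out it was −0.12, and with replicate 3 of that group left out −0.02. RRM2, its small subunit, stood at −0.06 ± 0.07 at the brightest probe set and at 0.12 ± 0.12 at the dimmer.

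The regulators that open S phase were below 0 at 3 of 4 genes. E2F2, an activator of the E2F family, had 6.54, 6.14 and 6.66 with ANRIL siRNA, against 6.20, 6.31 and 6.14 with control siRNA. ANRIL siRNA replicate 2 was below every control siRNA array while replicates 1 and 3 were above them, and the difference was 0.23 ± 0.12 (95% interval −0.03 to 0.49, adjusted p = 0.335). With ANRIL siRNA replicate 2 left out it was 0.38, and with replicate 3 of that group left out 0.12. Of its dimmer probe sets, the brighter differed by 0.25 ± 0.09 with no overlap between groups and the dimmest by −0.01 ± 0.09. E2F1, the best known activator, had 6.46, 6.52 and 6.29 with ANRIL siRNA and 6.60, 6.38 and 6.39 with control siRNA, a difference of −0.04 ± 0.08 (adjusted p = 0.835). Its dimmer probe set had the other sign, with 6.36, 6.23 and 6.27 with ANRIL siRNA against 6.16, 6.02 and 6.21 with control siRNA and a difference of 0.16 ± 0.07.

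Cyclins E1 and E2, the partners of CDK2 at the start of S phase, were both below 0 at their brightest probe sets with all 6 arrays. CCNE1 turned sign with cyclic loess (0.043), a second quantile normalization (0.047) and arrays left out (up to 0.0027), and CCNE2 with probe sets averaged (0.015). CCNE1 had 9.04, 9.09 and 8.997 with ANRIL siRNA, against 9.02, 9.11 and 9.07 with control siRNA, a difference of −0.02 ± 0.06 (95% interval −0.15 to 0.11, adjusted p = 0.873). CCNE2 had 5.64, 5.03 and 5.30 with ANRIL siRNA and 5.54, 5.47 and 5.50 with control siRNA. The ANRIL siRNA arrays of CCNE2 spread widely about the closely grouped controls, and the difference was −0.18 ± 0.13 (adjusted p = 0.462), against 0.21 ± 0.10 at its dimmer probe set. Without ANRIL siRNA replicate 1 CCNE2 was at −0.34, and without ANRIL siRNA replicate 2 at −0.03.

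Genes of chromatin assembly, the checkpoint and histone mRNA were below 0 at 3 of 5. SLBP, which binds the stem loop of histone mRNAs, had 10.98, 11.00 and 10.98 with ANRIL siRNA, against 11.18, 11.16 and 11.06 with control siRNA. All ANRIL siRNA values lay below all control siRNA values, and the difference was −0.14 ± 0.06 (95% interval −0.28 to −0.01, adjusted p = 0.252). SLBP stood at −0.06 under cyclic loess and at −0.055 with quantiles normalized again. CHAF1A, the large subunit of chromatin assembly factor CAF-1, had 6.65, 6.63 and 6.79 with ANRIL siRNA and 6.79, 6.89 and 6.79 with control siRNA, a difference of −0.13 ± 0.07 (adjusted p = 0.329). Its 4 probe sets divided into 2 above and 2 below 0. CHAF1B, its partner, stood at 0.04 ± 0.06, UHRF1, which binds newly copied methylated DNA, at −0.08 ± 0.07, and CLSPN, the checkpoint mediator claspin, at 0.04 ± 0.07. A dimmer CLSPN probe set had 4.49, 4.54 and 4.54 with ANRIL siRNA against 4.25, 4.19 and 4.27 with control siRNA, a difference of 0.29 ± 0.06 with no overlap, which did not pass over all probe sets (adjusted p = 0.22).

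Probe sets of the same gene often disagreed. Of the 23 genes with several probe sets, 14 had probe sets on both sides of 0 and 9 had all on 1 side. Over all 72 probe sets 42 were below 0 and 30 above, with a median of −0.02, beside 46.1% below 0 and a median of 0.01 over all 54613 probe sets. None of the 72 passed, as 0% of all probe sets did. At an unadjusted p under 0.05 there were 5 higher and 3 lower, together 11.1% against 15.1% of all probe sets (8.96% higher, 6.14% lower). Groups did not overlap at 12 of 72, or 16.7%, against 21% of all. Of these 8 were higher and 4 lower, against 11% and 9.97% of all probe sets.

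**Figure D2:**
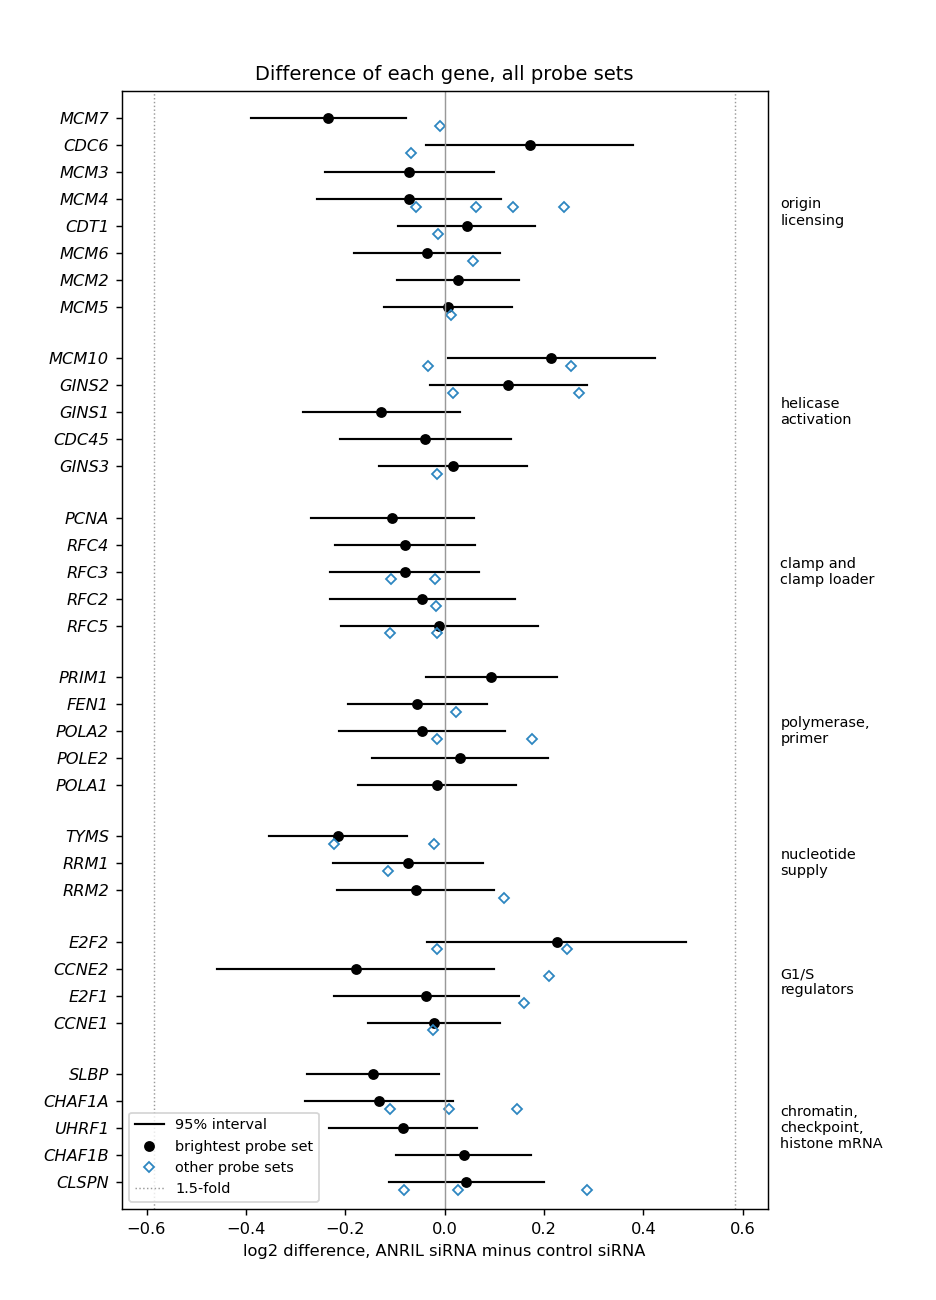
The log2 difference, ANRIL siRNA minus control siRNA, is shown for each gene at its brightest probe set (black circle) with its 95% interval (line, n = 3 per group) and at its other probe sets (blue diamonds, without intervals). Every interval lies inside the dotted lines at 1.5-fold, 4 of them leave out 0, and the diamonds of 14 genes together with their circle lie on both sides of 0.

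The sign of a difference went with the signal of the gene, among the members as among all genes. Of the 20 members above the median signal, 17 were below 0, with a median of −0.06, beside 74.1% and −0.06 for all genes above it. Of the 15 members at or below the median signal, 6 were below 0, with a median of 0.03, beside 28.6% and 0.06 for all genes there. Set against the median of all genes in their own signal decile, 24 members were below and 11 above, and the median of these distances was −0.02. The distances ran from −0.25 for CCNE2 to 0.17 for GINS2, with −0.19 for MCM7 and 0.11 for CDC6. After cyclic loess, which removes a trend with signal, 23 of 35 members were below 0 with a median of −0.01, against 0.0087 for all genes. With quantiles normalized again 22 members were below 0 with a median of −0.01, against 0.0126 for all genes.

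**Figure D3:**
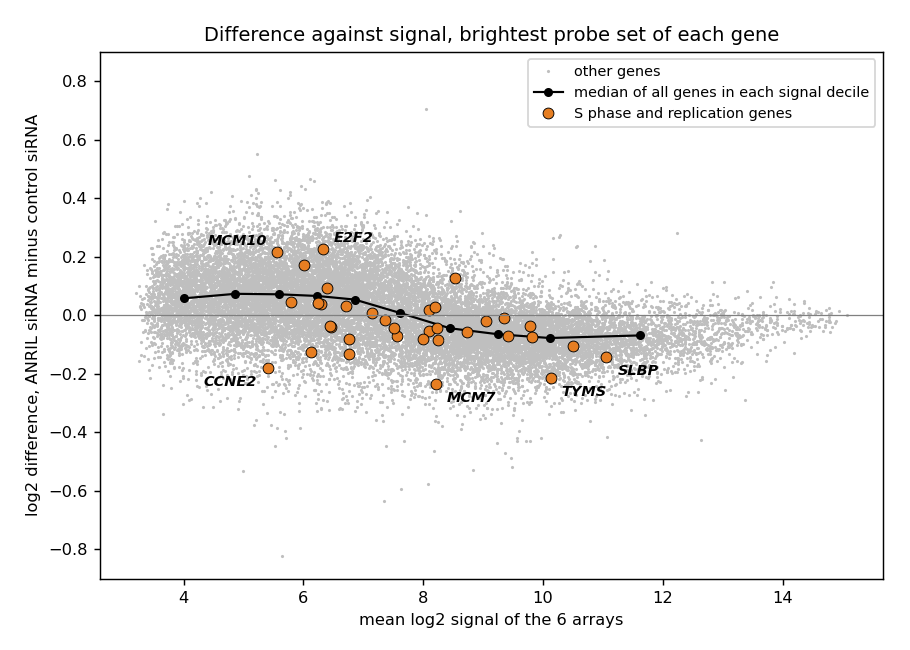
Each grey point is a gene, with its mean log2 signal over the 6 arrays on the horizontal axis and its log2 difference, ANRIL siRNA minus control siRNA, on the vertical axis. The black line joins the medians of the 10 signal deciles, from 0.06 in decile 1 to −0.07 in decile 10, and the 35 orange S phase and replication genes lie on both sides of it, between −0.23 and 0.23.

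Highest and lowest values were unevenly shared among the arrays. Control siRNA replicate 2 held the highest value of 12 of the 35 genes, and ANRIL siRNA replicate 3 the lowest value of 12. As a median over the members, the deviation from the mean of the 6 arrays was −0.01, −0.01 and −0.03 on ANRIL siRNA replicates 1 to 3 and −0.03, 0.06 and 0.02 on control siRNA replicates 1 to 3. Control siRNA replicate 1 thus lay among the ANRIL siRNA arrays. The median difference of the members, −0.04, was −0.07 without control siRNA replicate 1, and −0.02 without control siRNA replicate 2, control siRNA replicate 3 or ANRIL siRNA replicate 3.

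**Figure D4:**
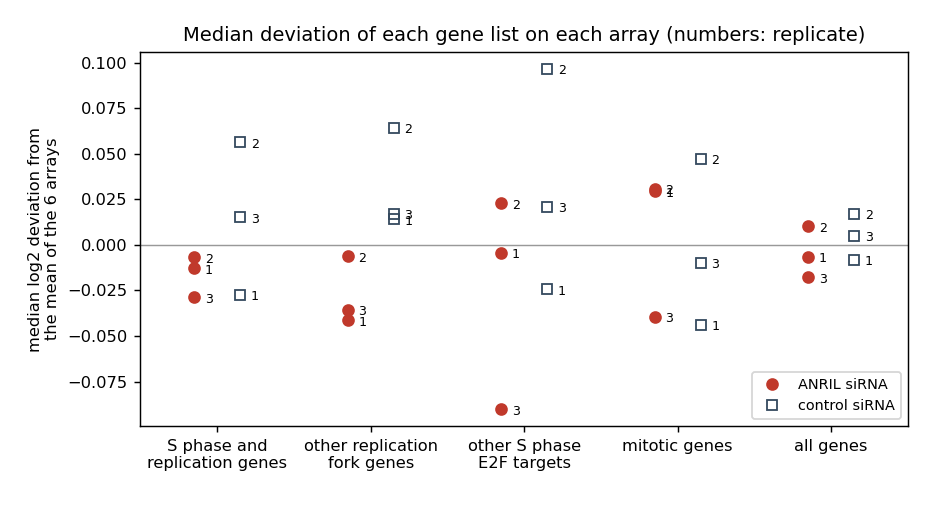
For each array, the vertical axis gives the median over a gene list of the log2 deviation from the mean of the 6 arrays, with ANRIL siRNA as filled red circles and control siRNA as open squares, numbered by replicate. Control siRNA replicate 2 is the highest point for the S phase and replication genes, the other fork genes, the other S phase E2F targets, the mitotic genes and all genes. Only for the other fork genes do the circles lie wholly below the squares.

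Other genes of the same pathway, listed separately, did not pass either. Of 35 further replication fork genes, among them the origin recognition complex, polymerases delta and epsilon, replication protein A and DNA ligase I, 24 were below 0 with a median of −0.06, and 0 passed. At an unadjusted p under 0.05, 0 were higher and 5 lower (14.3%, against 18% of all genes), and the groups did not overlap for 8, or 22.9%, against 23.4% of all genes. POLD2, a subunit of polymerase delta, stood at −0.22 ± 0.06 (adjusted p = 0.167) and MCMBP, which binds MCM proteins, at −0.21 ± 0.07 (adjusted p = 0.172). Of 20 measured S phase E2F targets outside the fork, 13 were below 0 with a median of −0.06, and 0 passed. The groups did not overlap for 10 of these 20, 4 higher and 6 lower, and at an unadjusted p under 0.05 there were 2 higher and 3 lower. These are 50% and 25% of the list, against 23.4% of all genes without overlap and 18% of all genes at that unadjusted p, and the difference from all genes was not tested. E2F8, a repressor of the E2F family, stood at −0.29 ± 0.07 (adjusted p = 0.147) and ASF1B, a histone chaperone, at 0.21 ± 0.06 (adjusted p = 0.154).

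Of 10 genes of the E2F and RB families 5 were below 0 with a median of −0.03, and 0 passed, with 0 higher and 1 lower at an unadjusted p under 0.05. TFDP2, a dimer partner of E2F, stood at −0.19 ± 0.06 (adjusted p = 0.186) and RBL2, which encodes the pocket protein p130, at −0.13 ± 0.06 (adjusted p = 0.282). Of 8 measured S phase histone genes 5 were below 0 with a median of −0.06, and 0 passed, with 1 higher and 1 lower at that unadjusted p, H3C2 at 0.24 ± 0.08 and H2AC6 at −0.18 ± 0.07. Mitotic genes, which follow S phase in the cycle, were below 0 at 12 of 30 with a median of 0.02, and 0 passed, with 2 higher and 2 lower at that unadjusted p. KIF23, a kinesin of the midbody, stood at −0.25 ± 0.07 (adjusted p = 0.167) and HMMR, a spindle protein, at 0.21 ± 0.07 (adjusted p = 0.189). KIF23 and H3C2 had low signals, at percentiles 7.76 and 6.37 of all genes, against 40.7 for HMMR and 63.3 for H2AC6. At that unadjusted p were 10% of the E2F and RB, 25% of the histone and 13.3% of the mitotic genes. Over all genes the share was 18% (9.83% higher, 8.16% lower). Groups did not overlap for 2 (20%), 2 (25%) and 4 (13.3%) genes of these lists in turn, against 23.4% of all genes. Whether the S phase genes differed from these lists was not tested.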

How the data were processed

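Total RNA of 6 HUVEC samples, 3 with ANRIL siRNA and 3 with control siRNA, was hybridised to 1 array each. The deposited log2 values per probe set were made by the authors with RMA, the affy package and limma named in the submitters' processing notes, with versions and any filter on probe sets not stated. This method corrects background, quantile-normalizes and summarises probes. Array medians were 6.218, 6.183 and 6.229 with ANRIL siRNA and 6.176, 6.137 and 6.165 with control siRNA, without overlap between the groups. The part of this offset in the differences was not tested. The 3 arrays per group limit the precision.

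Leaving out 62 control probe sets, 54613 were tested. Symbols of the platform annotation were updated by Entrez identifier with the RefSeq table of GRCh38.p14 (41037 of 41091 probe sets with 1 symbol matched; 1801 had several and 11721 were not listed). Each of 19775 genes was read at its probe set of highest mean. The values have no stated genome build, so gene coordinates are given only for RefSeq promoters. Differences were fitted with lmFit and eBayes (constant prior, no replicate term) of limma 3.58.1 in R 4.3.3. The fit was tried on simulated data, with changes larger than those of the members and no trend of the difference with signal. That trial cannot show how well differences as small as those of the members are found. Adjusted p-values are two-sided, and those of a dimmer probe set are over all probe sets.

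The members, the other lists and the alternatives were chosen with earlier results of these data known. All members are named. Values of every array are given by rule for the 2 members of smallest p in each of 7 roles and for PCNA, E2F1 and CCNE1, and also for MCM2 and some dimmer probe sets, chosen after their values were seen. From each pathway list the 2 genes of smallest p are named, and also TK1 and DUT, chosen after their values were seen.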

Additional observations from a re-analysis of the deposited data

How the results depend on the processing

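The precision was limited by 3 arrays per group. The members called stayed at 0 under every alternative except the intensity-trended robust prior, which called 1 (TYMS). All 35 were measured except above the median signal only, with 20, and without _s_at and _x_at probe sets, with 28. Among those 20 the smallest limma adjusted p was 0.0502. Genes called over the array were 0 in the fit used here, 541 with that prior (115 higher and 426 lower), 32 with arrays centred on their medians and 309 of 9887 above the median signal only, and 0 under the others and at an adjusted p under 0.1. No member probe set was called with the replicate block, array weights, either renormalization, centring, the signal filter, the trended prior or any array left out. Deviations from the group means correlated at 0.06, 0.14 and −0.04 for same-numbered arrays and at −0.18 to 0.14 for other pairs between the groups. Whether the replicate numbers pair the samples was not tested. With the replicate block 0 genes were called, as without it, and the smallest adjusted p of a member was 0.173. The median difference of the members, −0.04, was −0.0888 with arrays centred on their medians, where 30 of 35 were below 0 and the median of all genes was −0.05, and 0.001 when the probe sets of a gene were averaged, where 17 were below 0. Without 1 array it ran from −0.07 (without control siRNA replicate 1) to −0.02.

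Centring moved the difference of every gene by the same amount. Leaving out _s_at and _x_at probe sets meant that some genes were read at another probe set. The cause of the other turns below was not tested. Of the 35 members 14 kept their sign under every alternative in which they were measured, arrays left out included: MCM7, MCM10, GINS1, GINS2, PCNA, RFC2, RFC3, RFC4, PRIM1, FEN1, TYMS, E2F2, UHRF1 and SLBP. Repeated quantile normalization turned CDT1 to −0.011, MCM3 to 0.0099, MCM5 to −0.0098, MCM6 to 0.049, RFC5 to 0.067, POLE2 to −0.0046, RRM1 to 0.0086, RRM2 to 0.0064, CCNE1 to 0.047, CHAF1B to −0.0059 and CLSPN to −0.0031. Cyclic loess turned CDT1 to −0.020, MCM3 to 0.0008, MCM5 to −0.0093, MCM6 to 0.043, RFC5 to 0.060, POLE2 to −0.0057, RRM1 to 0.0043, CCNE1 to 0.043, CHAF1B to −0.014 and CLSPN to −0.011. Centring turned CDT1 to −0.0062, MCM2 to −0.023, MCM5 to −0.044, GINS3 to −0.033, POLE2 to −0.020, CHAF1B to −0.012 and CLSPN to −0.0068. Array weights turned MCM5 to −0.0020, GINS3 to −0.0007, RFC5 to 0.024 and POLA1 to 0.018. The mean of all probe sets turned MCM4 to 0.063, MCM6 to 0.011, POLA2 to 0.039, RRM2 to 0.031, CCNE2 to 0.015 and E2F1 to 0.062. Without _s_at and _x_at probe sets, where 28 members were measured, CDC6 was at −0.068, MCM4 at 0.063, GINS3 at −0.015, POLA2 at 0.18, RRM2 at 0.12, E2F1 at 0.16 and CHAF1A at 0.14, and of the markers COL3A1 at 0.18 and ESRP1 at −0.055.

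Leaving out 1 array in turn also turned signs, with MCM4 from −0.12 to 0.019, MCM5 from −0.015 to 0.022, MCM6 from −0.066 to 0.018, CDC45 from −0.10 to 0.030, GINS3 from −0.033 to 0.064 and RFC5 from −0.082 to 0.065. Likewise POLA1 ran from −0.065 to 0.028, POLA2 from −0.12 to 0.016, POLE2 from −0.041 to 0.11, CCNE1 from −0.046 to 0.0027, E2F1 from −0.085 to 0.036 and CLSPN from −0.018 to 0.085.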
